A study of Mus musculus with 12 samples.

Results

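The minor islet peptide genes followed here were Ghrl, Cck, Penk, Nmb, Tac1, Cartpt, Adcyap1, Ucn3 and Gast, which encode peptides made in small amounts, or by few cells, beside the main islet hormones. They were taken by name, 9 of the 31055 genes in the single-cell tables and of the 45808 genes in the bulk table, and each was followed in every cell class and every bulk library. Of the 12 samples, 4 were droplet libraries of mouse islet cells, a sorted YFP+ and a sorted YFP- library from each of 2 experiments. The other 8 were bulk libraries of sorted YFP+ cells, 5 of γ-cells and 3 of δ-cells. The single-cell mice were labelled Ppy-rtTA; R26-YFP and the γ-cell bulk mice Ppy-rtTA; TetO-Cre; R26-YFP: the doxycycline-dependent transactivator rtTA replaces the coding sequence of 1 Ppy allele, so these animals carry a single intact Ppy copy, and doxycycline at 1 mg/ml in the drinking water switches on a permanent YFP mark in cells with an active Ppy promoter. All single-cell and bulk samples are labelled with an age of 2 months and with this doxycycline treatment 1 month before extraction. The single-cell age label also says wild-type, although these mice carry the transgenes. Islet cells of several mice were pooled in each experiment. The δ-cell mice were Sst-Cre; R26-YFP, in which Cre follows the somatostatin promoter at all times, so that any cell that once used it keeps the mark. Their Cre needs no doxycycline, and whether they received it is not clear from the labels, which give 1 treatment text for all samples. All 3 δ-cell libraries were single-end runs and all 5 γ-cell libraries paired-end runs on a later HiSeq model, so that read layout, instrument, mouse model and cell type cannot be told apart. Nothing in the labels says that the bulk libraries came from separate animals, so their p-values measure only the spread between these libraries, which may be technical.

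Islet endocrine cells store their peptides in dense-core granules, where precursors are cut by prohormone convertases, trimmed and amidated before release. Beside insulin, glucagon, somatostatin and pancreatic polypeptide, islets can hold peptides better known from the gut and the nervous system, which act on neighbouring cells through G-protein-coupled receptors. Ucn3, an agonist of the corticotropin-releasing factor receptor Crhr2, is known in mouse β-cells as a marker of maturity, and ghrelin marks the islet ε-cell, which is rare after birth. Gastrin is made in the fetal pancreas and afterwards mainly in the stomach, and cholecystokinin and gastrin share the Cckbr receptor.

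The RefSeq promoters of Ucn3 and Gast, the members that could be tested in single cells, and of Cck, the member with the most molecules in 1 cell, are given as the 250 bases before the annotated start in GRCm38.p6, with motif matches in capitals. Ucn3 lies on chromosome 13, minus strand, at 3940688 to 3945349 with 2 exons, and its promoter window is chr13:3945350-3945599. Gast lies on chromosome 11, plus strand, at 100334407 to 100336997 with 3 exons, and its window is chr11:100334157-100334406. Cck lies on chromosome 9, minus strand, at 121489824 to 121495694, and its window is chr9:121495695-121495944.
Ucn3 promoter: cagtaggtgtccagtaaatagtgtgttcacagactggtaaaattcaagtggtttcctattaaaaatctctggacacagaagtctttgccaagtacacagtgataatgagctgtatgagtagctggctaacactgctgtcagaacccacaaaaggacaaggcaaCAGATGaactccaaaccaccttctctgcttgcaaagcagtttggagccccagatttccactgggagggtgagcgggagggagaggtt
Gast promoter: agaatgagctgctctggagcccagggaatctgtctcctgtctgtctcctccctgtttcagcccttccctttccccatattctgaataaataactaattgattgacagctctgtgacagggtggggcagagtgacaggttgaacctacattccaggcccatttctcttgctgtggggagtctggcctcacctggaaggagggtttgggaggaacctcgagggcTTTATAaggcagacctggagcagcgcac
Cck promoter: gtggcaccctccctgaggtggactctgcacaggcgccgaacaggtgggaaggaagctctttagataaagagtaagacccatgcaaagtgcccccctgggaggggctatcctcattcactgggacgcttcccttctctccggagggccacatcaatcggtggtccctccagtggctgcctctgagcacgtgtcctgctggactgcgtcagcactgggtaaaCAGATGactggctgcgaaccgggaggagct
The motifs searched, on both strands, were TATAAA, the TATA box, TGACGTCA, the cyclic AMP response element, CAGATG, an E-box bound by NeuroD1 and its partners, TAATTA, a homeodomain core, and GGGCGG, the GC box. The Ucn3 window held CAGATG 87 bases before the start and the Cck window held it 30 bases before. The Gast window held TTTATA, which is TATAAA read on the other strand, 28 bases before the start. Among 32851 promoter windows of the same length, 14.4% held CAGATG and 12.4% held TATAAA, so these matches were common and describe the letters only. The GC content was 46.4% for Ucn3, 53.2% for Gast and 60% for Cck, against a median of 52.4% over all windows.

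The 4 droplet libraries held 1300 to 1689 cells each, with 10683494 to 18330975 unique molecules (UMIs) and a median of 4237 to 8338 UMIs per cell. Pairs of libraries shared between 1 and 6 cell barcodes, and 128 cells (2.14%) were removed as doublets. Cells were put in 7 classes by which hormone messages lay above a threshold: 1465 Ppy+, 613 Gcg+, 523 Ins2+ and 247 Sst+ monohormonal cells, and 750 Ppy+Gcg+, 396 Ppy+Sst+ and 120 Ppy+Ins2+ bihormonal cells. Ppy+ cells came from the YFP+ libraries except for 10 cells, and Gcg+, Ins2+ and Sst+ cells from the YFP- libraries except for 1 Ins2+ cell, so the sort goes with the class. In every class and experiment, endocrine markers summed to 166018 to 703070 CPM (counts scaled to the same total in each sum or library), beside 3.64 to 47.2 for stromal, 5.32 to 72.3 for endothelial and 56.1 to 1209 for immune markers. The bulk libraries held 14633838 to 31784878 counts for γ-cells and 7641916 to 11773598 for δ-cells. Ppy stood at 87365 to 116446 CPM in γ-cell and 10889 to 16501 CPM in δ-cell libraries, and Sst at 7119 to 11511 and 69804 to 101118 CPM. Each bulk library thus also held the hormone message that names the other group, and the part of bihormonal cells in it was not tested. Gcg stood at 43968 to 83707 CPM in γ-cell and 1557 to 6696 CPM in δ-cell libraries. Single Ppy+ cells held 1219 and 1564 CPM of Gcg in experiments 1 and 2, but their class was chosen to lie below the Gcg threshold. Ppy+Gcg+ cells held 166772 and 128844 CPM, and 337 and 326 of them lay in the YFP+ libraries of experiments 1 and 2. The part of cells with Gcg message in the bulk differences was not tested. Acinar markers summed to 1959 to 11413 CPM in γ-cell and 20612 to 88893 CPM in δ-cell libraries.

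Most of the 9 genes were scarce. Over the 5982 cells, Ucn3 gave 2539 UMIs in 562 cells, Cck 2268 UMIs in 99 cells, Penk 398 UMIs in 166 cells and Gast 187 UMIs in 96 cells. Nmb gave 97 UMIs in 96 cells, Cartpt 52 in 44, Ghrl 47 in 4 and Tac1 6 in 5. Adcyap1 had no UMI in any cell, which allows a share of cells with a UMI of up to 0.0502% (3 counts over all cells). The totals had different shapes. The Nmb and Cartpt molecules were spread thinly, at most 2 and 3 in a cell, whereas single cells held 44 of the Ghrl, 83 of the Gast and 1216 of the Cck molecules. Ucn3 was the member with many cells of several molecules, 229 of them with 5 or more and at most 17. Only Ucn3 and Gast passed the filter on low counts in the single-cell fits, and Penk, Nmb, Cartpt, Ucn3 and Gast in the bulk fit.

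**Figure D1:**
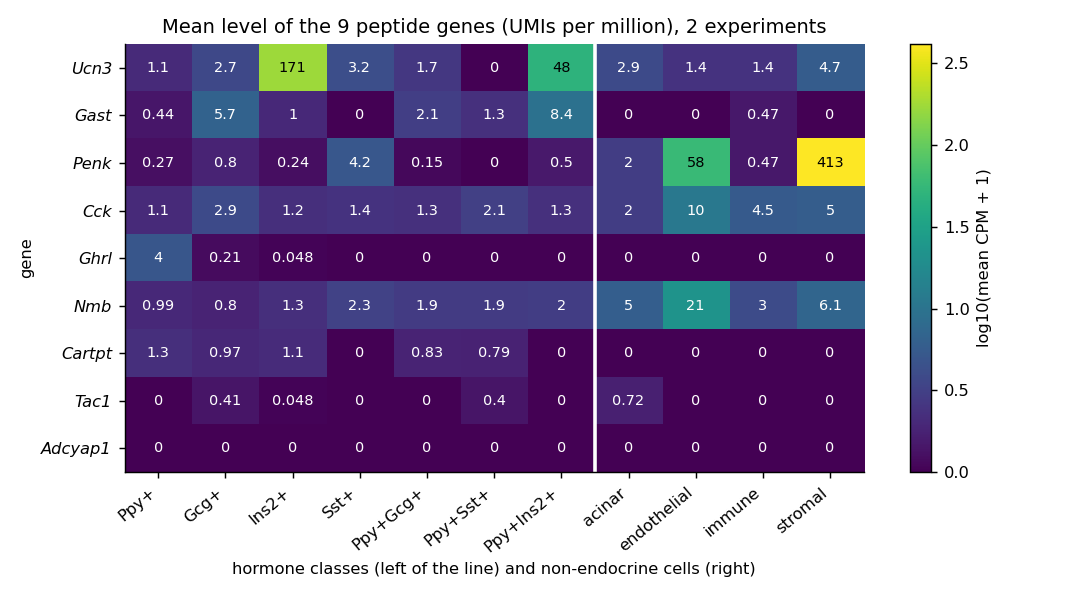
Mean CPM of the 2 experiments for the 9 peptide genes (rows) in the 7 hormone classes and 4 non-endocrine cell groups (columns), on a colour scale that is logarithmic. Ucn3 stands out in Ins2+ cells at 171 CPM and Penk in stromal cells at 413 CPM, while Adcyap1 is at 0 in every column.

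Ucn3 was high in cells with insulin message and low in every other class. Ins2+ cells held 202 CPM in experiment 1 and 140 CPM in experiment 2 (171 ± 44.2, SD, n = 2), from 2255 UMIs, and 82.6% of them had at least 1 UMI (95% exact binomial interval 79.1 to 85.8, which like all such intervals here covers counting error only). Ppy+Ins2+ cells held 51.2 and 45.2 CPM (48.2 ± 4.21, SD, n = 2) from 68 UMIs, with a UMI in 27.5% of cells (19.7 to 36.4). The values of these classes did not overlap with each other or with any other class. Sst+ cells stood at 3.64 and 2.78 CPM, Gcg+ cells at 4.11 and 1.23, Ppy+Gcg+ cells at 2.11 and 1.21 and Ppy+ cells at 1.56 and 0.549. From Sst+ down to Ppy+ each neighbouring pair in this order overlapped between experiments. Ppy+Sst+ cells had no Ucn3 UMI in 396 cells, so that Ins2+ cells were at least 144-fold higher when the Ppy+Sst+ sum is set to a floor of 3 counts.

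Against the other monohormonal classes, Ucn3 passed the test in each comparison with Ins2+ cells and in no comparison among Ppy+, Gcg+ and Sst+ cells. Ppy+ cells lay below Ins2+ cells (log2 fold change -7.91, SE 0.21, edgeR quasi-likelihood test with Benjamini-Hochberg adjusted p = 1.16e-27). Gcg+ cells lay below Ins2+ cells by -6.96 (SE 0.21, edgeR adjusted p = 1.53e-25), and Ins2+ cells above Sst+ cells by 7.16 (SE 0.32, edgeR adjusted p = 2.81e-20). These sizes were as large when cells were classed by hormone alone, without asking that they lie in a cluster of their hormone: -7.73 for Ppy+ against Ins2+ cells and 7.20 for Ins2+ against Sst+ cells. The clusters were built from the most variable genes, and Ucn3 was among the leading genes of one. Between Ppy+ and Gcg+ cells the log2 fold change of -0.95 (SE 0.53, edgeR adjusted p = 0.238) did not pass, nor did -0.75 between Ppy+ and Sst+ cells (SE 0.90, edgeR adjusted p = 0.702) or 0.20 between Gcg+ and Sst+ cells (SE 0.84, edgeR adjusted p = 0.932). In the Ppy+ against Gcg+ comparison, without removal of doublets Ucn3 passed at -2.16 (edgeR adjusted p = 0.0172).

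Of the 2 tested members, 1 was called in Ppy+ against Gcg+ cells (Gast), where 12.3% of all 10468 genes were called, and both were called in Ppy+ against Ins2+ cells, where 25.9% of genes were. Neither was called between Ppy+ and Sst+ cells (background 11.5%), where edgeR gave Ucn3 an unadjusted p of 0.433 and Gast one of 0.307, and DESeq2 called 0 as well. Ucn3 alone was called between Gcg+ and Ins2+ cells (background 22.3%) and between Ins2+ and Sst+ cells (background 15.5%), and Gast alone between Gcg+ and Sst+ cells (background 11.9%). As both passed the filter through the classes where they were high, these counts of 2 genes describe Ucn3 and Gast and not the 9 genes. The 9 comparisons share their classes, so their values are not independent.

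**Figure D2:**
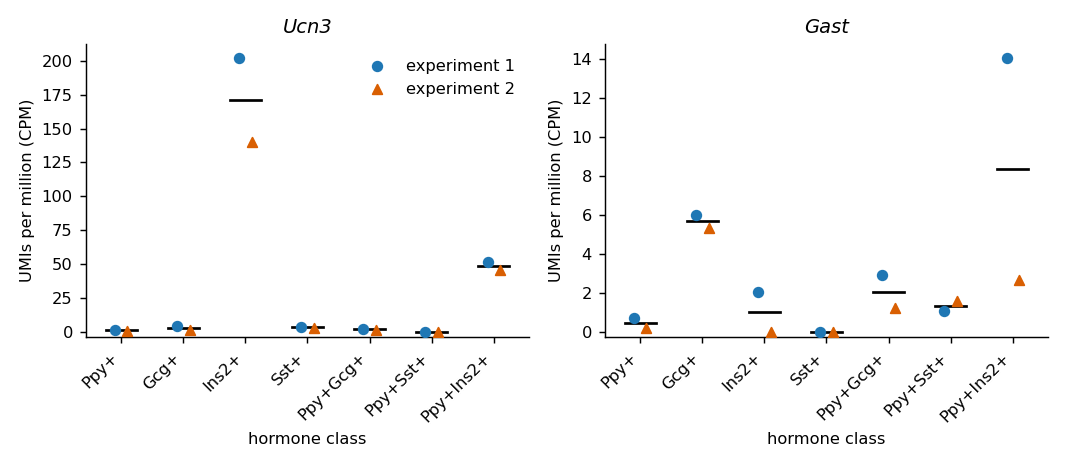
CPM of Ucn3 and Gast (y axis) in the 7 hormone classes (x axis), with a point for each of the 2 experiments and a bar for their mean. Ucn3 lies at 140 CPM or more in Ins2+ cells, at 45.2 and 51.2 CPM in Ppy+Ins2+ cells and at most at 4.11 CPM elsewhere, while Gast is highest in Ppy+Ins2+ cells of experiment 1 at 14.1 CPM.

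Bihormonal cells were set against Ppy+ cells to ask what a second hormone message goes with. Doublet calls had removed 21 of 1300 cells from the YFP+ library of experiment 1 and 5 of 1498 from that of experiment 2. The part of unmarked doublets in the bihormonal classes was not tested. Ucn3 lay 5.36 log2 units higher in Ppy+Ins2+ than in Ppy+ cells (SE 0.35, edgeR adjusted p = 9.00e-15), and Gast 4.31 units higher (SE 0.78, edgeR adjusted p = 0.000157), in a comparison where 6.72% of genes were called. Both genes passed the filter on low counts through the classes where they were high, so nothing is read from the count of members called against that share. With each cell thinned to 1000 UMIs the Ucn3 value was 2.37 and did not pass (edgeR adjusted p = 0.324). Thinning left a Ucn3 UMI in 2.5% of Ppy+Ins2+ cells. Gast in Ppy+Ins2+ cells stood at 14.1 CPM in experiment 1 and 2.66 CPM in experiment 2, where 1 of 39 cells had a UMI. Its call against Ppy+ cells thus rests mainly on experiment 1. Neither member was called in Ppy+Gcg+ against Ppy+ cells (background 2.68%), where Ucn3 stood at 0.35 (SE 0.54, edgeR adjusted p = 0.836) and Gast at 1.84 (SE 0.77, edgeR adjusted p = 0.20, unadjusted p = 0.0213). Neither was called in Ppy+Sst+ against Ppy+ cells (background 7.51%), where Ppy+Sst+ cells had no Ucn3 molecule (edgeR unadjusted p = 0.0140, adjusted p = 0.101) and the Gast value was 1.02 (SE 1.17, edgeR adjusted p = 0.689). DESeq2 called 0 of the members in both comparisons.

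Ppy+Ins2+ cells also held less Ucn3 for their insulin message than Ins2+ cells did. In Ins2+ cells there were 4.11 Ucn3 UMIs per 10000 Ins2 UMIs in experiment 1 (exact Poisson interval 3.93 to 4.29) and 3.15 in experiment 2 (2.69 to 3.66). In Ppy+Ins2+ cells there were 1.3 (0.967 to 1.71) and 1.42 (0.830 to 2.28). The intervals of the classes did not overlap in either experiment. The median cell of the Ins2+ class held 4 Ucn3 UMIs in experiment 1 and 1 in experiment 2, and 215 of 523 cells held 5 or more, whereas 87 of the 120 Ppy+Ins2+ cells held none. Median depth was 23905 and 12395 UMIs in Ins2+ cells and 11131 and 7705 in Ppy+Ins2+ cells of experiments 1 and 2, and Ppy+Ins2+ cells came from the YFP+ libraries except for 11 cells of experiment 1 and 3 of experiment 2. Depth and the sort thus moved with the class, and their part was not tested.

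**Figure D3:**
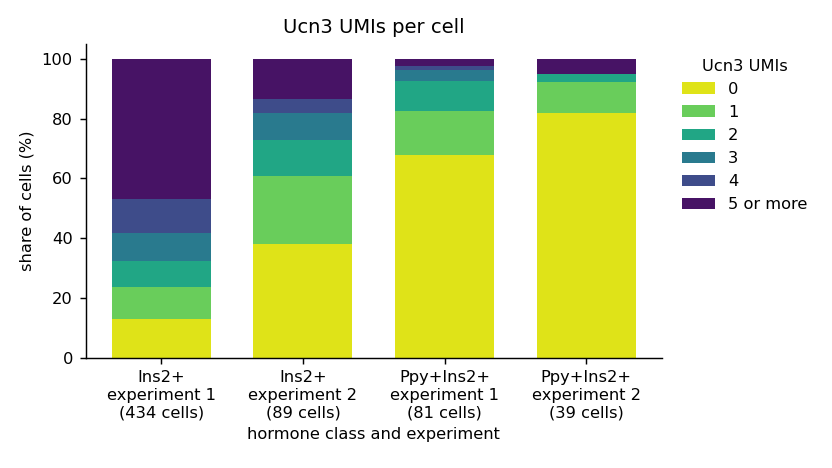
Share of cells (y axis, percent) with 0, 1, 2, 3, 4 and 5 or more Ucn3 UMIs, stacked, for Ins2+ and Ppy+Ins2+ cells of experiments 1 and 2 (x axis). In Ins2+ cells of experiment 1, 203 of 434 cells hold 5 or more Ucn3 UMIs, and in Ppy+Ins2+ cells 55 of 81 hold none.

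All 523 Ins2+ cells lay in a pair of insulin-high clusters, as the rule of their class required. Ppy+Ins2+ cells could lie in any endocrine cluster. Of them, 14 lay in a cluster led by Serpina1a and Cela2a (10.2 CPM of Ucn3). Another 3 lay in clusters led by Ppy or rtTA (no Ucn3 UMI), and the rest in the same pair. The first cluster of the pair was led by Ins1, G6pc2, Ins2 and Mafa, with Ucn3 itself among its leading genes. The second was led by Gast, Ins2, Defb1, Bace2 and Iapp, but 1 cell outside the classes held most of its Gast molecules. Ins2+ cells of the first (438 cells) held 213 CPM of Ucn3 and those of the second (85 cells) 56.3 CPM. Ppy+Ins2+ cells held 119 CPM in the first (20 cells) and 34.4 CPM in the second (83 cells), the lower value in each cluster. Most Ins2+ cells thus lay in the first cluster and most Ppy+Ins2+ cells in the second. Per 10000 Ins2 UMIs, Ucn3 stood at 4.35 in Ins2+ and 2.99 in Ppy+Ins2+ cells of the first cluster and at 1.17 and 0.837 in the second, so that the gap within a cluster was smaller than the gap between the whole classes. With both experiments pooled, Ins2 itself stood at 488223 and 483388 CPM in Ins2+ cells of the first and second cluster. It stood at 492554 and 494296 CPM in experiment 1 and at 452289 and 353011 CPM in experiment 2, the last from 10 cells. As the clusters were built with these genes, these values are a description with no test.

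A few Ucn3 molecules lay outside insulin cells, and they were set beside non-endocrine cells of the same library, which should not make Ucn3. Ppy+ cells had a UMI in 1.04% of cells in experiment 1 and 0.380% in experiment 2. The YFP+ libraries, from which they came, had none in 44 and 127 non-endocrine cells, where the exact intervals reach 8.04% and 2.86%, so that too few such cells were there to tell the Ppy+ shares from background. Gcg+ cells had a UMI in 3.58% of cells in experiment 1 and 0.980% in experiment 2. In their YFP- libraries 2.62% of non-endocrine cells had one in experiment 1 (1.27 to 4.77) and 0.244% in experiment 2 (0.0295 to 0.877), at median depths of 4642 and 3033 UMIs against 7841 and 6444 in Gcg+ cells. The Gcg+ share was thus inside that interval in experiment 1 and above it, from 3 UMIs, in experiment 2. Per 10000 Ins2 UMIs, Gcg+ cells held 4.87 Ucn3 UMIs in experiment 1 (2.43 to 8.71) and 3.68 in experiment 2 (0.758 to 10.7), intervals that include the ratio of Ins2+ cells. Ppy+ cells held 10.2 (4.69 to 19.5) and 7.79 (1.61 to 22.8), above the Ins2+ ratio in experiment 1, from 9 UMIs. Over the 14 class sums, the genes whose log2(CPM + 1) most closely followed Ucn3 were Cox6a2 (Pearson r = 0.966), Slc2a2 (r = 0.964), the β-cell glucose transporter, and Car10 (r = 0.963). These sums share libraries, and the correlations are descriptions.

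In the bulk libraries Ucn3 was higher in γ-cells, beside more insulin message. The 5 γ-cell libraries held 6.67, 7.64, 4.18, 4.45 and 8.61 CPM (6.31 ± 1.95, SD, n = 5) and the 3 δ-cell libraries 1.57, 3.91 and 1.13 CPM, so that the groups did not overlap. The difference of 1.75 log2 units (SE 0.50, edgeR adjusted p = 0.0132) made Ucn3 the single member called of the 5 tested, in a comparison that called 35.0% of 17926 genes, and it was called under all 16 alternatives. Ins2 moved with it, at 5225 to 15417 CPM in γ-cell and 935 to 2297 CPM in δ-cell libraries. Per 10000 Ins2 reads, Ucn3 ran the other way, from 4.81 to 7.99 in γ-cell and from 9.83 to 17 in δ-cell libraries. Between the monohormonal classes of single cells the Ucn3 level was also in reverse order. Ppy+ cells held 1.56 and 0.549 CPM and Sst+ cells 3.64 and 2.78 CPM in experiments 1 and 2, the latter from 3 UMIs. The single-cell difference did not pass. The Ppy+ class leaves out cells with a second hormone message, whereas the γ-cell bulk libraries held sorted YFP+ cells of any class. All cells of the YFP+ droplet libraries together held 7.09 and 2.78 CPM of Ucn3 in experiments 1 and 2. In these bulk samples fewer cells of a type and less RNA per cell cannot be told apart.

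Gast, the precursor of gastrin, was highest in Gcg+ and Ppy+Ins2+ cells, at a few molecules per class. Gcg+ cells held 5.98 and 5.34 CPM in experiments 1 and 2 (5.66 ± 0.458, SD, n = 2; 29 UMIs), with a UMI in 4.57% of cells (3.06 to 6.53). Ppy+Ins2+ cells held 14.1 and 2.66 CPM, from 14 UMIs and 1 UMI, and their 8.33% of cells with a UMI (4.07 to 14.8) therefore rests on experiment 1. Ppy+ cells held 0.693 and 0.183 CPM (5 UMIs), Ppy+Gcg+ cells 2.91 and 1.21, Ppy+Sst+ cells 1.06 and 1.59, and Sst+ cells had no UMI in 247 cells. Among the 1373 non-endocrine cells 0.218% had one, against 0.341% of Ppy+ cells. The 3 non-endocrine cells with a Gast UMI all came from the YFP- library of experiment 2, whereas Ppy+ cells came mostly from the YFP+ libraries. The YFP+ libraries had none in 44 and 127 non-endocrine cells, where the exact intervals reach 8.04% and 2.86%. That is too few cells to tell the Ppy+ share from background.

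In Ppy+ cells Gast lay below Gcg+ cells by -3.20 log2 units (SE 0.66, edgeR adjusted p = 0.000333), with both experiments on the same side, and the call held in all 11 alternatives that could test it. Below Ins2+ cells it lay by -2.31 (SE 0.73, edgeR adjusted p = 0.0117), which rests on experiment 1: Ins2+ cells had 21 Gast UMIs in experiment 1 and 0 in 89 cells of experiment 2. This call was lost without the experiment as a block (edgeR adjusted p = 0.0608) and with DESeq2 (adjusted p = 0.0978). Gcg+ cells exceeded Sst+ cells (edgeR adjusted p = 0.0285), by at least 1.72-fold if the Sst+ sum is taken as 3 counts, and this call too was lost without the block (edgeR adjusted p = 0.119) and with DESeq2 (adjusted p = 0.0692). Between Gcg+ and Ins2+ cells the value of 0.89 (SE 0.53, edgeR adjusted p = 0.218) did not pass. The genes that most closely followed Gast over the 14 sums were Cdkn1a (Pearson r = 0.841), Rit2 (r = 0.821) and Gpd2 (r = 0.766).

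A single cell carried more Gast than the Gcg+, Ins2+ and Ppy+Ins2+ classes together. This YFP- cell of experiment 1 held 83 Gast UMIs, 2.01% of its 4124 UMIs, with 199 of Iapp, 66 of Chga, 65 of Ins2 and 22 of Pcsk2, all genes of endocrine cells. It lay in the insulin-high cluster that Gast led, and as its hormone messages fell in no class it entered no comparison. That cluster had 104 Gast UMIs in all, in 16 of its 198 cells, so that this 1 cell held most of them. Gast is therefore not read as a marker of the cluster.

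In bulk, Gast did not separate the groups. The γ-cell libraries held 23.4, 0.955, 0.505, 0 and 0.342 CPM, and the δ-cell libraries 1.83, 2.04 and 1.6 CPM. The first γ-cell library stood above all others and the remaining 4 below every δ-cell library. The log2 fold change was 1.70 (SE 1.6, edgeR adjusted p = 0.396) with it and -1.70 (edgeR adjusted p = 0.174) without it.

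**Figure D4:**
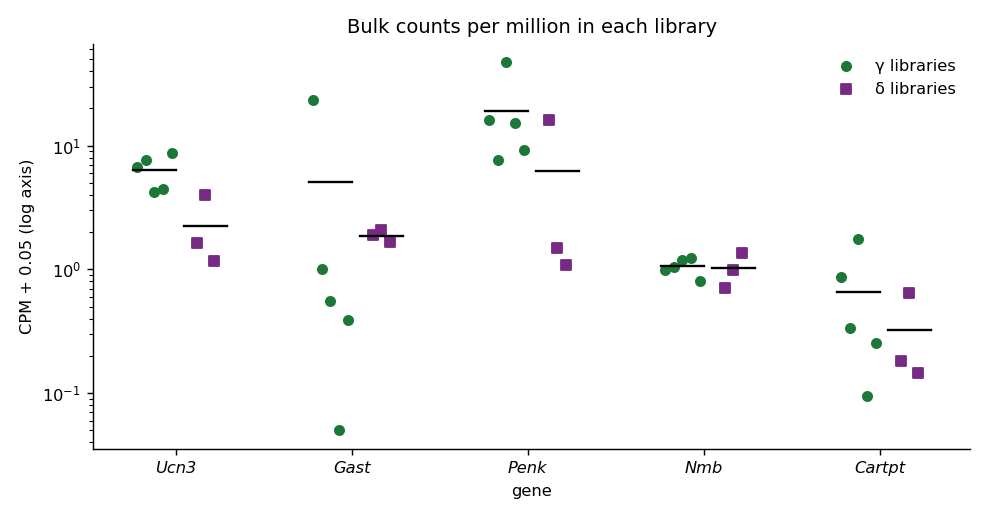
CPM plus 0.05 on a logarithmic y axis for Ucn3, Gast, Penk, Nmb and Cartpt in the 5 γ-cell and 3 δ-cell bulk libraries, with a point per library and a bar for the group mean. The groups are apart for Ucn3 and overlap for Penk, Nmb, Cartpt and Gast, where γ-cell replicate 1 lies at 23.4 CPM.

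Ghrl, the ghrelin precursor (chromosome 6, 113716119 to 113719911, minus strand), was read in 4 cells. One Ppy+ cell of the YFP+ library of experiment 2 held 44 of the 47 UMIs, 1.16% of its 3792 UMIs, together with 1022 UMIs of Ppy and 792 of Pyy. It had no UMI of Mboat4, the enzyme that acylates ghrelin. The other 3 cells held 1 UMI each. The cluster this cell belonged to listed Ghrl among its 10 leading genes by fold, although 1 of its 944 cells held all of that cluster's Ghrl molecules. In bulk, the γ-cell libraries held 0, 8, 2, 0 and 1 Ghrl counts and the δ-cell libraries 1, 0 and 11, so that the groups overlapped.

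Cck was carried by 4 cells outside the 7 classes. They came from the YFP- library of experiment 2 and held 1216, 395, 267 and 284 Cck UMIs, which made up 18.5%, 9.69%, 7.17% and 7.87% of their molecules. All 4 also held Sct, the secretin precursor, at 810, 291, 202 and 186 UMIs, and the last pair held Gip, the incretin of intestinal K cells, at 1149 and 1175 UMIs while the first pair held none. They lay in a cluster of 29 cells led by Tff3, Zg16, Fcgbp, Gip, Cck and Muc2, among which Tff3, Zg16, Fcgbp and Muc2 are known as genes of mucus-secreting cells. In the other 1685 cells of that library, 79 Cck UMIs were scattered over 4.27% of cells, at 7.41 CPM and at most 2 per cell. The other 3 libraries stood at 0.327 to 1.13 CPM. In that library Cck was found in 3.69% of cells of the 7 classes (2.35 to 5.48) and in 3.78% of non-endocrine cells (2.58 to 5.32). The shares were alike, but depth and level were not. Cells of the classes had a median of 5608 UMIs and 4.94 CPM of Cck, and non-endocrine cells 3033 UMIs and 9.56 CPM. Gip was scattered too, with 75 UMIs outside its high cells in that library and 0 in the other 3. Gcg+ cells held 0.374 CPM of Cck in experiment 1 and 5.34 CPM in experiment 2. The source of the scattered molecules was not tested, and none of these values is read as expression in a hormone class. In bulk, Cck gave 5, 10, 7, 0 and 0 counts in γ-cells and 1, 0 and 0 in δ-cells.

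Penk, the precursor of the enkephalins (chromosome 4, 4133536 to 4138815, minus strand), was found mainly in stromal cells. Stromal cells held 472 CPM in experiment 1 and 354 CPM in experiment 2 (413 ± 83.4, SD, n = 2) from 344 of all 398 UMIs, with a UMI in 46.5% of 301 cells. By library the stromal level was 265 and 444 CPM in the YFP+ sorts of experiments 1 and 2 and 570 and 307 CPM in the YFP- sorts, and 37.0%, 45.6%, 53.3% and 45.9% of the stromal cells had a UMI, so that all 4 libraries showed it. Another 26 UMIs lay in 2 cells of the endothelial group, 1 of them with 17. In the 7 hormone classes the mean level was 0 to 4.17 CPM.

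In bulk, Penk levels overlapped between γ- and δ-cell libraries and varied beside the stromal markers. The γ-cell libraries held 16.0, 7.59, 47.0, 15.2 and 9.09 CPM and the δ-cell libraries 16.1, 1.44 and 1.04 CPM, so that the first δ-cell library lay inside the γ-cell range. The sum of 11 stromal markers was 629, 528, 3349, 1185 and 980 CPM in the γ-cell libraries and 940, 327 and 10.4 CPM in the δ-cell libraries, and in the last of these Dcn, Lum, Pdgfra, Acta2 and Mgp were at 0. The library with the most Penk was also that with the largest stromal sum, and the library with the least Penk that with the smallest. The Penk difference of 1.95 log2 units (SE 0.90, edgeR adjusted p = 0.0934) did not pass. Without δ-cell replicate 1 it was 4.16 (edgeR adjusted p = 0.00289), and without the filter on low counts 1.97 (edgeR adjusted p = 0.0142). The part of stromal cells in these values was not tested.

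**Figure D5:**
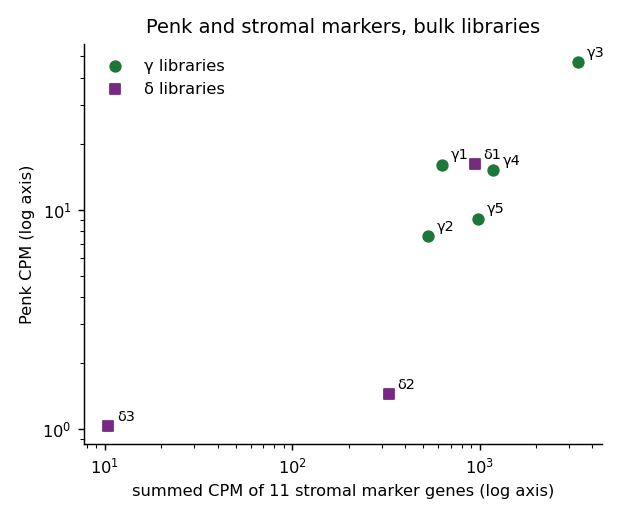
Penk CPM (y axis) against the summed CPM of 11 stromal markers (x axis), both on logarithmic axes, with a point for each of the 5 γ-cell and 3 δ-cell bulk libraries. The γ-cell library at 47.0 CPM of Penk has the largest stromal sum, 3349 CPM, and the δ-cell library at 1.04 CPM the smallest, 10.4 CPM.

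Nmb, the precursor of the bombesin-like peptide neuromedin B (chromosome 7, 80902227 to 80905062, minus strand), was low in every hormone class, with means of 0.803 to 2.30 CPM. These rest on 2 to 13 UMIs per class, too few for a test between classes. Endothelial cells held 22.3 and 19.8 CPM in experiments 1 and 2 (21.0 ± 1.74, SD, n = 2), from 12 UMIs in 4.67% of cells. The γ-cell libraries held 0.944, 1.00, 1.15, 1.18 and 0.752 CPM and the δ-cell libraries 0.654, 0.934 and 1.32 CPM. The groups overlapped, and the difference of 0.32 log2 units (SE 0.49, edgeR adjusted p = 0.616) did not pass.

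Cartpt, which encodes the CART peptides (chromosome 13, 99898483 to 99910179, minus strand), had no UMI in 1373 non-endocrine cells and few in the hormone classes. Ins2+ cells held 2.23 CPM in experiment 1, from 23 UMIs in 16 of 434 cells, and none in the 89 cells of experiment 2, where the exact interval reaches 4.06% and so includes the 3.69% of experiment 1. Ppy+ cells held 1.04 and 1.46 CPM from 14 UMIs. In bulk the γ-cell libraries had 26, 6, 37, 1 and 3 counts and the δ-cell libraries 1, 7 and 1, which overlapped, and the difference of 1.32 log2 units (SE 1.13, edgeR adjusted p = 0.351) did not pass. Tac1, the precursor of substance P (chromosome 6, 7555061 to 7562978, plus strand), had 0, 0, 5, 0 and 4 counts in γ-cells and 5, 2 and 2 in δ-cells. Adcyap1, the precursor of PACAP (chromosome 17, 93198245 to 93206541, plus strand), had 2 counts in the first δ-cell library and 0 in the other 7.

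Receptors of these peptides were scarce in single cells as well. Of 15 receptor genes, Ghsr, the ghrelin receptor, and Vipr1, which binds VIP and PACAP, passed the single-cell filter. Ghsr was found in Sst+ cells at 9.09 and 11.1 CPM (9 UMIs) and in Ppy+Sst+ cells at 6.37 and 3.97 CPM (11 UMIs), and at 0 in Ppy+, Gcg+ and Ppy+Gcg+ cells. With the sum at 0 taken as 3 counts, Sst+ cells were at least 37.1-fold higher than Ppy+ cells (edgeR adjusted p = 0.000466), and Ppy+Sst+ cells at least 18.7-fold higher than Ppy+ cells (edgeR adjusted p = 0.00165). Vipr1 was highest in Gcg+ cells at 22.1 and 33.7 CPM, with 10.2 and 12.8 CPM in Ppy+ cells (log2 fold change of Ppy+ against Gcg+ -0.88, SE 0.20, edgeR adjusted p = 0.00109). Sst+ cells stood at 1.82 and 5.56 CPM, from 3 UMIs.

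In bulk 7 of the 15 receptors were tested, of which 1 was higher in γ-cells and 3 lower, with a median of -0.33 log2 units beside -0.055 for all genes, of which 20.7% were called higher and 14.2% lower. Vipr1 was higher in γ-cells, at 109 to 139 CPM against 7.59 to 10.9 CPM (log2 fold change 3.99, SE 0.16, edgeR adjusted p = 3.40e-08). Ghsr was lower, at 3.87 to 13.9 against 43.2 to 84.6 CPM (-2.66, SE 0.38, edgeR adjusted p = 0.000189), as was Vipr2 (-2.48, SE 0.80, edgeR adjusted p = 0.0240). Cckar, the receptor of cholecystokinin that acinar cells also express, was lower at 1.06 to 7.18 against 22 to 73.9 CPM (-3.43, SE 0.61, edgeR adjusted p = 0.000881), and the acinar marker sums above moved the same way. Their part in it was not tested.

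Among 10 genes that mature peptide precursors, 9 were tested in single cells and Pcsk1, the convertase of proinsulin, set the classes apart most. It stood at 77.7 and 105 CPM in Ins2+ cells, 64.3 and 93.1 in Ppy+Ins2+ cells, 18.2 and 25.0 in Sst+ cells, 12.5 and 11.7 in Ppy+ cells and 0.748 and 0.821 in Gcg+ cells. Ppy+ cells were above Gcg+ cells by 4.24 (SE 0.45, edgeR adjusted p = 1.10e-09) and below Ins2+ cells by -3.51 (SE 0.16, edgeR adjusted p = 4.05e-21). Qpct, the glutaminyl cyclase that caps peptides with pyroglutamate, was highest in Ppy+ cells at 10.2 and 9.34 CPM, above Gcg+ cells by 2.54 (SE 0.44, edgeR adjusted p = 2.94e-05) and with no UMI in Sst+ cells. In Ppy+ cells 2 of the 9 were called higher and 1 lower than in Gcg+ cells (median -0.047 log2 units, all genes -0.013; 5.79% of all genes higher and 6.48% lower), and 3 higher and 2 lower than in Ins2+ cells (median 0.58, all genes 0.0026; 12.2% higher and 13.8% lower). Against Sst+ cells, 4 of the 9 were called higher in Ppy+ cells and 0 lower, where 11.5% of all genes were called. The median was 0.44 log2 units beside 0.022 for all genes. There Pcsk1n stood at 0.12 (SE 0.14, edgeR adjusted p = 0.683) and Cpe at 0.44 (SE 0.13, edgeR adjusted p = 0.0205), and neither was called. In bulk 6 of the 10 were higher in γ-cells and 0 lower, beside 20.7% and 14.2% of all genes, with a median of 1.69 beside -0.055, among them Pcsk1n (6.02, SE 0.28, edgeR adjusted p = 6.09e-08) and Cpe (2.73, SE 0.17, edgeR adjusted p = 4.50e-07). The bulk differences of Pcsk1n and Cpe were thus far larger than those in single cells. Endocrine markers, which include Pcsk1n, Scg5 and Cpe, summed to 206414 to 226129 CPM in γ-cell and 106119 to 139394 CPM in δ-cell libraries, and acinar markers moved the other way. Their part in these values was not tested.

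Of 24 other regulatory peptide genes, 5 were tested in single cells. Npb, the neuropeptide B precursor, was highest in Ppy+ cells at 9.35 and 6.59 CPM (90 UMIs), above the 2.24 and 2.46 CPM of Gcg+ cells by 2.12 (SE 0.41, edgeR adjusted p = 0.000149) and at 0 in Sst+ cells. It was also higher in γ- than in δ-cell bulk libraries, at 1.44 to 3.44 against 0.131 to 0.340 CPM (3.43, SE 0.59, edgeR adjusted p = 0.000666). Pdyn, the dynorphin precursor and a relative of Penk, had 1 UMI in the 1465 Ppy+ cells. It held 102 and 8.34 CPM in Sst+ cells, 74.3 and 7.98 in Ppy+Ins2+ cells, 54.1 and 8.74 in Ppy+Sst+ cells and 22 and 19.2 in Ins2+ cells of experiments 1 and 2. All 4 classes lay above Ppy+ cells in both experiments, but their order among themselves changed between experiments. Both Ppy+Sst+ cells (7.24, SE 0.71, edgeR adjusted p = 3.81e-10) and Ppy+Ins2+ cells (8.42, SE 0.65, edgeR adjusted p = 5.72e-13) exceeded Ppy+ cells, with fitted values that depend on the single Ppy+ UMI. The bulk libraries did hold Pdyn, at 11.2 to 27.4 CPM in γ-cells and 25.1 to 74.1 CPM in δ-cells, and it was not called there. These γ-cell libraries held sorted YFP+ cells of any class, whereas the Ppy+ class leaves out cells with a second hormone message. In bulk 11 of the 24 were tested and 2 were called higher in γ-cells and 2 lower, with a median of 0.80 beside -0.055 for all genes, shares close to the 20.7% and 14.2% of all genes: Npb and Vgf (5.06, SE 0.87, edgeR adjusted p = 0.000701) were higher, Gal (-2.71, SE 0.71, edgeR adjusted p = 0.00846) and Pomc (-1.05, SE 0.29, edgeR adjusted p = 0.0112) lower.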

How the data were processed

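The 9 genes and the 3 gene lists were chosen with earlier results of these data known. The authors deposited UMI counts per gene and cell (Cell Ranger, mm10) and read counts per gene of the bulk libraries (STAR 2.7.2b, HTSeq 0.9.1, GRCm38.p6), both not normalized. Another 6 columns of bulk counts matched no sample label and were not used.

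Cells with at least 500 genes, 1000 UMIs and at most 7% mitochondrial UMIs were kept. Doublets were cells marked by Scrublet (scanpy 1.11.5) or by a nearest-neighbour caller. Scrublet marked 0.134% of cells and had not worked. The other caller took the top 2% of cells in each experiment, so the share removed was largely set in advance and is no measured doublet rate. Cells were integrated over the 2 experiments and clustered in Seurat 5.3.0 from 1000 variable genes, and a cell was positive for Ppy, Gcg, Ins2 or Sst above the lowest density minimum. Monohormonal cells had to lie in a cluster of their hormone. UMIs were summed per class and experiment and fitted with edgeR 4.0.16 (quasi-likelihood, TMM, experiment as a block), with calls at a Benjamini-Hochberg adjusted p of at most 0.05 over all genes tested and a fold above 0.5 on the natural-log scale. The bulk fit, edgeR without a block, took genes whose mean over the libraries was 5 counts or more and calls from 1 log2 unit. DESeq2 1.42.0 was an alternative. P-values of single cells rest on 2 experiments. Shares carry 95% Clopper-Pearson intervals, and sums at 0, like the gene at 0 in all cells, a limit of 3 counts.

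Tested on simulated data, the single-cell fit of Ppy+ against Gcg+ cells called 56% of 2-fold and 94% of 4-fold changes among 10468 genes, and the bulk fit 15% and 68% among 17926. Unchanged genes made up 2.60% of the simulated single-cell calls and 8.79% of the bulk calls. The bulk share was thus above the rate that an adjusted p of at most 0.05 is meant to keep. The genes named were the 9 members, genes of the lists called in a comparison, the hormones that define classes, and for each member tested in single cells the 3 genes with the highest correlation over the 14 sums. Genes named to describe single cells, clusters, stromal markers at 0 or uncalled list genes were chosen after their values were seen. Promoters came from RefSeq, which gave one for 8 of the 9 genes, and gene positions from its annotation.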

Additional observations from a re-analysis of the deposited data

Results flagged for a closer look

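In 3 of 8 peptide genes tested for it, 1 of the 5 γ-cell bulk libraries stood apart from the other 4 by more than Dixon's 95% limit, which chance exceeds in about 1 in 20 groups of normally distributed values. These were Gast at 23.4 CPM in replicate 1, Penk at 47.0 CPM in replicate 3 and Ghrl at 0.382 CPM in replicate 2, the last from 8 counts. The 3 genes stood apart in 3 different libraries. Gast and Ghrl reached 0 CPM in γ-cell libraries, and values near 0 are skewed, so the rate for normal values need not hold here.

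Signals also appeared in cells outside the 7 hormone classes. Penk had a mean of 413 CPM in stromal cells, above the 0 to 4.17 CPM of the classes. Cck had 2162 UMIs in 4 cells of the YFP- library of experiment 2. Gast had 83 UMIs in 1 cell of the YFP- library of experiment 1 that fell in no class.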

How the results depend on the processing

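Among the counts of peptide genes called, 117 of 136 stayed within 1.5 times the main count over the alternatives and 19 did not. Ppy+ against Gcg+ cells, with 1 called, gave 0 with the library as a block or cells thinned to 1000 UMIs, 2 without the filter on low counts (Gast and Ghrl, the latter from 1 cell) and 2 without doublet removal. Ppy+ against Ins2+ cells, with 2 called, gave 1 without the replicate block of experiments, with the library as a block, with DESeq2 and with thinned cells, in each case Ucn3. Gcg+ against Sst+ cells, with 1 called, gave 0 under the same 4 settings. Without the filter, Ppy+Gcg+ and Ppy+Sst+ against Ppy+ cells gave 1 in place of 0, again Ghrl. Ppy+Ins2+ against Ppy+ cells, with 2 called, gave 1 with the library as a block and in YFP+ libraries alone, and 0 with thinned cells. Gast did not pass the filter with the library as a block, with thinned cells and in YFP+ libraries alone, so those counts test Ucn3. In bulk, with 1 called, the count was 2 without the filter and 1 to 2 when each library was left out. For Ucn3 the log2 fold change reversed with thinned cells in Ppy+ against Gcg+ cells (1.21), Ppy+ against Sst+ cells (3.36) and Ppy+Gcg+ against Ppy+ cells (-1.38), none of them called, and for Gast in bulk without γ-cell replicate 1 (-1.70, with 2.02 the highest value when another library was left out). The cause was not tested, other than the fewer genes and molecules of those settings.

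Same-numbered bulk replicates did not deviate together (correlations -0.095, 0.068 and -0.27), so the numbers do not pair the libraries, and with the replicate block 1 gene was called as before. Leaving out the cells with 5 or more UMIs of Ghrl, Cck or Gast, an alternative chosen after seeing the data, changed no count of called genes. Of these cells only the Ghrl cell lay in a class, and Ghrl did not pass the filter. This alternative could therefore hardly move the counts, and nothing is read from it. With 1 experiment left out there is no test. Ucn3 was called in all alternatives of its 3 comparisons with Ins2+ cells and in bulk. At these depths 4 of the 9 genes could not be tested in either data type.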

Other observations

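Ucn3 was also read in endocrine cells that belong to no comparison. Cells with Ppy and 2 or 3 other hormones held 7.08 CPM in experiment 1 (61 cells) and 17.5 CPM in experiment 2 (111 cells). Endocrine cells that fell in no class held 69.8 and 27.7 CPM, and cells removed as doublets 73.5 and 3.40 CPM. All of these lay below Ins2+ cells of the same experiment.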
